A study of Mus musculus with 13 samples.

Results

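Coenzyme Q (ubiquinone) is the lipid that carries electrons from complexes I and II, and from several other dehydrogenases, to complex III in the inner mitochondrial membrane. It is built by joining a polyprenyl tail to a benzoquinone ring precursor, and the ring is then hydroxylated, methylated and decarboxylated by enzymes that sit together in a matrix-facing assembly. Skeletal muscle, a tissue rich in mitochondria, depends on this carrier for oxidative phosphorylation, and inherited defects in its synthesis can present as muscle disease. The 10 genes described here encode the enzyme that attaches the tail (Coq2), enzymes of ring methylation and hydroxylation (Coq3, Coq5, Coq6, Coq7), the scaffold and lipid-binding proteins of the assembly (Coq4, Coq9), 2 kinase-like regulators (Coq8a, Coq8b) and a protein that binds the finished lipid (Coq10a). They were chosen by symbol, make up 10 of the 21868 genes measured, and all 10 had a mean normalized count of at least 10, as did 12303 genes in all.

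Gastrocnemius muscle RNA was sequenced from 13 male mice (C57BL/6 in the labels, C57BL/6N in the legends of the study) that were 7 weeks old when the study began, had been made obese on a diet with 60 kcal% fat for 15 to 17 weeks, were then moved to chow, and were treated for 3 weeks. Vehicle-treated mice (n = 5, mice 1 to 5) received phosphate-buffered saline, semaglutide-treated mice (n = 5, mice 13 to 17) received the GLP-1 receptor agonist semaglutide at 30 nM/kg per day by intraperitoneal injection, and both of these groups also carry a placebo in their labels. Semaglutide + ketone ester-treated mice (n = 3, mice 19, 21 and 22) received the same dose with drinking water that held a ketone ester (Qitone) at 0.114 g/mL. No group received the ketone ester alone, so its effect was measured only on top of semaglutide. The libraries held 15319471 to 23498162 reads on genes, and 3 reads, the floor used here, make up 1.28e-05% to 1.96e-05% of a library (counting error only). Semaglutide mouse 13 stood apart from its group. On the first principal component of all genes, which held 38.1% of the variance, its score was -9.12, whereas the other semaglutide-treated mice scored 31.8 to 52.5 and the vehicle-treated mice -24.5 to -12.9. Values without mouse 13 are therefore given beside the counts below.

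To show the stretches of DNA in front of members that did and did not pass the test, the bases upstream of the RefSeq start sites of 3 genes are printed 5′ to 3′ (GRCm38.p6, minus strand in each case). They are Coq7 and Coq10a, which had the largest fold changes under semaglutide among the 10 genes, and Coq2, which did not pass. Capitals mark any match to 4 motifs searched on both strands, namely the NRF-1 core TGCGCA, the estrogen-related receptor response element AAGGTCA, the GABP (ETS) core CCGGAAG and the YY1 core AAGATGG. These are motifs of factors known to act on nuclear genes for mitochondrial proteins.
Coq7, chr7:118533357-118533606: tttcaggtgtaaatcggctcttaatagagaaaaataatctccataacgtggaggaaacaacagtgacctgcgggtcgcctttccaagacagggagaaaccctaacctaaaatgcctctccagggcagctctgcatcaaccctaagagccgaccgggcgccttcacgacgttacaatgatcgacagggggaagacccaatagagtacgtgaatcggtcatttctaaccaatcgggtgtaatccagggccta
Coq10a, chr10:128370038-128370287: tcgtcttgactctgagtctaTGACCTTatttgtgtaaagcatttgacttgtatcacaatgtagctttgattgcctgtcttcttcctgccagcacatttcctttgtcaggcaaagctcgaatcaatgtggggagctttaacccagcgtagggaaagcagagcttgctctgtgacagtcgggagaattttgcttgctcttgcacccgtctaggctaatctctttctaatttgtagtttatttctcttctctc
Coq2, chr5:100674285-100674506: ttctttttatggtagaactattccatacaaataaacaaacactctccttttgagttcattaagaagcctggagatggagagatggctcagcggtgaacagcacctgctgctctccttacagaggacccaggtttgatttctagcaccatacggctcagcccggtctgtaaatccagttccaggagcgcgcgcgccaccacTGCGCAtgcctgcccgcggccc
The Coq7 stretch held none of the 4 motifs, and its start site is the same in RefSeq and GENCODE M21. The Coq10a stretch lies before a RefSeq start site 1040 bases upstream of the GENCODE start of the gene and held the estrogen-related receptor response element 230 bases before the start, on the opposite strand; a second Coq10a window, at the nearer start site, held none. Coq2 held an NRF-1 core 50 bases before its RefSeq start, which lies inside the gene by GENCODE, whose start at 100675140 is upstream of the RefSeq start at 100674256, and its printed stretch ends 29 bases before the RefSeq start, where an annotated exon begins. Of the 10 genes, 8 matched the RefSeq promoter windows of 300 bases (250 before and 50 after a start), with 11 windows in all, while Coq5 and Coq8b had no entry. An NRF-1 core was found in 3 of the 11 windows (Coq2, Coq3 and Coq8a), against 7.76% of all 32851 windows. The response element was found in 1 window (Coq10a, against 4.72%), the GABP core in 1 (Coq6, 20 bases after the start, against 8.86%) and the YY1 core in 1 (Coq9, 7 bases after the start, against 6.34%). A match is a string of letters and not evidence of binding, and genes with an NRF-1 core were found both among those that fell (Coq3) and among those that did not pass the test (Coq2, Coq8a). Median GC content was 52.0% in the 11 windows and 52.7% over all windows.

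In vehicle-treated muscle the 10 genes were expressed over a wide range. Levels between genes were compared as normalized counts per kilobase of exon (GENCODE M21). Coq8a was the highest at 2708 ± 681.8 per kilobase (SD, n = 5), followed by Coq9 at 1831 ± 78.5 and Coq10a at 1830 ± 128. Coq5 (474 ± 19.1), Coq2 (337 ± 4.82), Coq3 (138 ± 16.4), Coq7 (102 ± 15.3), Coq6 (92.1 ± 7.54), Coq4 (30.8 ± 4.03) and Coq8b (9.80 ± 2.63) followed in that order. Within this order the ranges over mice overlapped for Coq8a and Coq9, Coq9 and Coq10a, Coq3 and Coq7, and Coq7 and Coq6, but not for the other neighbours. The length is that of all annotated exons of a gene together, which can exceed the length of the transcripts made in muscle. The range over mice does not measure this error, so the order depends on the annotation. Coq7 (6434 bases), for example, had more counts than Coq3 (2997 bases), 653 against 413, but ranked below it. The kinase-like paralogs thus stood at the opposite ends of the order.

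Under semaglutide, 5 of the 10 genes (Coq3, Coq5, Coq7, Coq9 and Coq10a) were lower than in vehicle-treated mice and none was higher. These 5 encode ring-modifying enzymes, the lipid-binding partner of Coq7 and the protein that binds the finished lipid. Coq6, also a ring-modifying enzyme, did not pass (log2 fold change -0.29, adjusted p = 0.051 in limma). Among all 12303 genes tested, 13.9% were lower and 12.5% higher by the same test. The median log2 fold change of the 10 genes was -0.32, against -0.003 over all genes tested, and 8 of the 10 values were negative. Adding the ketone ester to semaglutide was accompanied by higher levels of 5 genes (Coq5, Coq6, Coq7, Coq9 and Coq10a) than under semaglutide alone, with none lower and a median of 0.37, where 10.0% of all genes tested were higher, 10.7% were lower and their median was 0. Between semaglutide + ketone ester and vehicle none of the 10 differed in limma, edgeR or DESeq2. Of all genes tested, 0.366% differed there in limma, 0.366% in edgeR and 1.46% in DESeq2. None of the 10 had an unadjusted limma p under 0.05 in that comparison, against 1283 of all 12303 genes tested. For 10 genes, a count of none is near that share. Both of the first comparisons use the same semaglutide-treated mice, so that a low value in these mice lowers one and raises the other. All tests are limma on log2(normalized count + 1) with Benjamini-Hochberg adjustment over all genes tested and a threshold of 0.05. At an unadjusted p under 0.05, 6 of the 10 were lower in the first comparison and 7 higher in the second, with none in the opposite direction, against 20.1% and 17.1% of all genes tested. On recovered reads, edgeR gave 5 lower and 6 higher (12.5% and 9.77% of all genes), and DESeq2 gave 6 and 6 (14.1% and 11.1%). Only Coq7 (2.19-fold) and Coq10a (1.70-fold) also had group means that spanned 1.5-fold or more with an unadjusted p under 0.05 over the 3 groups, a rule met by 16.1% of all genes tested. Without mouse 13, 6 genes were lower under semaglutide (Coq6 in addition, adjusted p = 0.032) and 6 were higher with the ketone ester (Coq3 in addition, adjusted p = 0.046). Without semaglutide + ketone ester mouse 22, only 2 genes, Coq7 and Coq9, were higher with the ketone ester. When columns were rescaled to equal totals, the median of all genes moved by 0.17 for semaglutide against vehicle and by -0.235 for semaglutide + ketone ester against semaglutide, and under that scaling 3 genes were lower (Coq7, Coq9 and Coq10a) and 1, Coq2, was higher in the first comparison, and 2 were higher (Coq7 and Coq9) and 1, Coq2, was lower in the second. For the fits without mouse 13, without mouse 22 and with equal totals, the shares of all genes that passed were not computed. These counts therefore have no background share beside them. In bulk muscle RNA, fewer cells of a type and less RNA per cell cannot be told apart, and this holds for each value below.

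**Figure D1:**
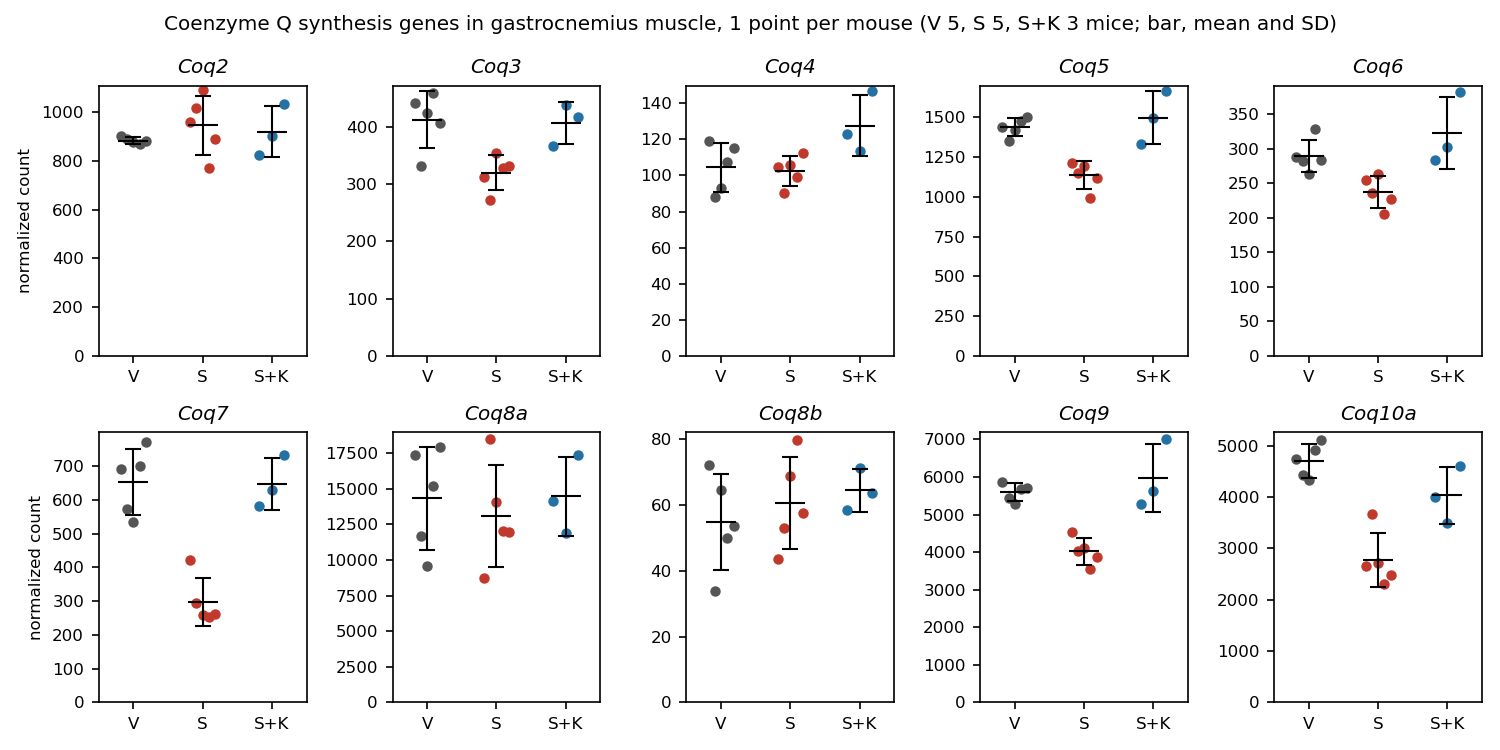
Normalized counts of the 10 coenzyme Q synthesis genes in gastrocnemius muscle, with 1 panel per gene, the treatment group on the x axis (V, vehicle; S, semaglutide; S+K, semaglutide + ketone ester) and the normalized count, starting at 0, on the y axis. Points are mice and bars the mean and SD; for Coq7 the semaglutide-treated mice lie between 252.5 and 421.7, below all mice of the other groups, whereas for Coq8a the 3 groups overlap.

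**Figure D2:**
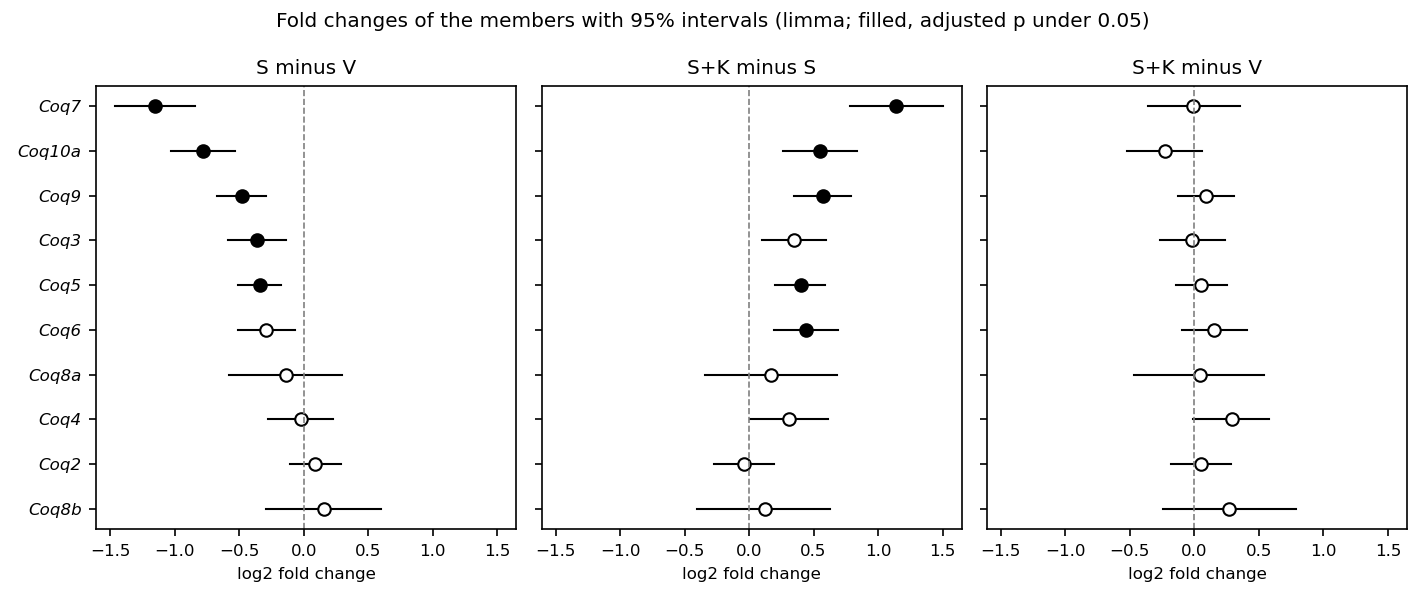
Log2 fold changes (x axis) of each gene (y axis, ordered by the value for semaglutide against vehicle) in the 3 comparisons, with 95% intervals from limma; filled points have an adjusted p under 0.05. Filled points lie left of 0 for 5 genes in the first panel and right of 0 for 5 genes in the second, and there is none in the third.

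Coq7 encodes the hydroxylase of the next-to-last ring modification and had the largest change of the 10 genes (ENSMUSG00000030652.11, chromosome 7, 118509659 to 118533356, minus strand, GRCm38). Normalized counts were 690.0, 572, 533, 699.6 and 772 in vehicle-treated mice 1 to 5. They were 422, 294, 259.9, 253 and 261 under semaglutide (mice 13 to 17), and 582, 628 and 732 with the ketone ester (mice 19, 21 and 22). Every semaglutide-treated mouse was below every mouse of the other 2 groups, and mouse 13 was the highest of its own group. Means were 653 ± 98.2 (SD, n = 5), 298 ± 71.1 (n = 5) and 647 ± 76.9 (n = 3). Coq7 fell by 54.8% under semaglutide (log2 fold change -1.15, SE 0.14, adjusted p = 0.00013 in limma). It was 2.2-fold higher with the ketone ester than with semaglutide alone (log2 1.14, SE 0.17, adjusted p = 0.00076). Both calls held in all 13 fits that left out 1 mouse, and without mouse 13 the values were -1.28 and 1.27. Against vehicle, the semaglutide + ketone ester group differed by -0.01 (95% interval -0.36 to 0.35), an interval that leaves room for changes of either sign.

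Coq9 encodes a lipid-binding protein that presents the intermediate to the Coq7 enzyme (ENSMUSG00000031782.15, chromosome 8, 94838321 to 94854895, plus strand). Its counts were 5874, 5429, 5271, 5677 and 5711 in vehicle-treated mice. Under semaglutide they were 4523, 4018, 4112, 3561 and 3880, and with the ketone ester 5280.0, 5635 and 7012. The semaglutide-treated mice were again below every mouse of both other groups, and mouse 22 was above all vehicle-treated mice. Means were 5592 ± 239.8 (SD, n = 5), 4019 ± 351 (n = 5) and 5976 ± 915 (n = 3). Log2 fold changes were -0.48 (SE 0.09, adjusted p = 0.0018 in limma) under semaglutide and 0.57 (SE 0.10, adjusted p = 0.0023) for the ketone ester on top of it. Both calls held in all 13 fits that left out 1 mouse. The first 38 bases of the gene lie on the opposite strand of Ciapin1, which is also in the table.

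Coq5 encodes the methyltransferase that adds the carbon-bound methyl group of the ring (ENSMUSG00000041733.10, chromosome 5, 115279666 to 115296972, plus strand). In vehicle-treated mice its counts were 1437, 1351, 1422, 1478 and 1501. In semaglutide-treated mice they were 1213, 1151, 1195, 993 and 1119, and in semaglutide + ketone ester-treated mice 1332, 1495 and 1662. No semaglutide-treated mouse reached the lowest mouse of either other group. Means were 1438 ± 57.9 (SD, n = 5), 1134 ± 86.9 (n = 5) and 1497 ± 165 (n = 3). The log2 fold change was -0.34 (SE 0.08, adjusted p = 0.006 in limma) under semaglutide and 0.40 (SE 0.09, adjusted p = 0.008) with the ketone ester added. The second call was lost without mouse 22 (adjusted p = 0.057), and both were lost with equal totals (-0.17, adjusted p = 0.058, and 0.16, adjusted p = 0.12). The second was also lost with equal totals without the mitochondrial genome (0.221, adjusted p = 0.053 in limma).

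Coq3 encodes the methyltransferase of the oxygen-bound methyl groups (ENSMUSG00000028247.2, chromosome 4, 21879673 to 21912162, plus strand). Counts in vehicle-treated mice were 442, 332, 424, 459 and 406. Those in semaglutide-treated mice were 312, 272, 354, 328 and 331, and those with the ketone ester 367, 437 and 417. Vehicle-treated mouse 2 lay inside the semaglutide range, whereas all 3 semaglutide + ketone ester-treated mice lay above it. Means were 413 ± 49.1 (SD, n = 5), 319.5 ± 30.7 (n = 5) and 407 ± 36.3 (n = 3). Coq3 fell under semaglutide by 0.36 on the log2 scale (log2 fold change -0.36, SE 0.10, adjusted p = 0.018 in limma), a call that was lost without vehicle mouse 4 (adjusted p = 0.05, just above the threshold), with equal totals (-0.191, adjusted p = 0.20) and with equal totals without the mitochondrial genome (-0.295, adjusted p = 0.072). With the ketone ester the log2 difference from semaglutide was 0.35 (SE 0.12) with an adjusted p of 0.05036 in limma, just past the threshold, and of 0.047 in edgeR and 0.036 in DESeq2 on recovered reads.

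Coq6 encodes a flavin-dependent ring hydroxylase (ENSMUSG00000021235.13, chromosome 12, 84361657 to 84373796, plus strand). Its counts were 288, 283, 264, 328 and 284 in vehicle-treated mice. They were 254, 236, 263, 205 and 227 under semaglutide and 284, 303 and 382 with the ketone ester. The vehicle and semaglutide groups did not overlap but nearly touched, with 263.6 in the lowest vehicle-treated mouse and 263.3 in the highest semaglutide-treated mouse. Means were 289 ± 23.7 (SD, n = 5), 237 ± 23.1 (n = 5) and 323 ± 51.9 (n = 3). The log2 difference of semaglutide from vehicle was -0.29 (SE 0.10, adjusted p = 0.051 in limma) and did not pass, although DESeq2 gave 0.049. With the ketone ester Coq6 rose by 0.44 over semaglutide alone (SE 0.12, adjusted p = 0.019), and this call was lost without mouse 22 (log2 0.31, adjusted p = 0.12) and with equal totals (log2 0.203, adjusted p = 0.16). It was also lost with equal totals without the mitochondrial genome (log2 0.264, adjusted p = 0.09 in limma). Fitting only the groups compared lost it too (adjusted p = 0.067 in limma). The gene shares 177 bases with Fam161b on the opposite strand.

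Coq10a encodes a mitochondrial protein with a lipid-transfer fold that binds coenzyme Q and is required for its use in respiration (ENSMUSG00000039914.6, chromosome 10, 128363100 to 128368997, minus strand). Vehicle-treated mice had counts of 4749, 4424, 4331, 4922 and 5116. Semaglutide-treated mice had 2660, 3669, 2720, 2306 and 2490, and semaglutide + ketone ester-treated mice 4007, 3487 and 4604. All semaglutide-treated mice were below all vehicle-treated mice, but mouse 14 was above mouse 21 of the semaglutide + ketone ester group. Means were 4708 ± 330.4 (SD, n = 5), 2769 ± 528 (n = 5) and 4033 ± 559 (n = 3). Coq10a fell by 41.8% under semaglutide (log2 fold change -0.78, SE 0.12, adjusted p = 0.00043 in limma). It was 0.55 higher on the log2 scale with the ketone ester (SE 0.13, adjusted p = 0.011), a call lost without mouse 22 (adjusted p = 0.075) and with equal totals (log2 0.315, adjusted p = 0.069). The call was also lost when only the groups compared were fitted (adjusted p = 0.055 in limma). The log2 difference of semaglutide + ketone ester from vehicle was -0.23 (95% interval -0.52 to 0.06, adjusted p = 0.62).

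Its paralog Coq10b, which is outside the 10 genes (ENSMUSG00000025981.13, chromosome 1, 55052770 to 55072702, plus strand), had normalized counts of 219.7 ± 35.8 (SD, n = 5) under vehicle, 127 ± 38.5 (n = 5) under semaglutide and 196 ± 17.5 (n = 3) with the ketone ester. Log2 fold changes were -0.83 (SE 0.19, adjusted p = 0.0067 in limma) and 0.68 (SE 0.22, adjusted p = 0.043), and the second call held in only 3 of 13 fits that left out 1 mouse. The log2 ratio of Coq10a to Coq10b was 4.43 ± 0.30 (n = 5), 4.47 ± 0.48 (n = 5) and 4.35 ± 0.20 (n = 3) in the 3 groups. In two-sided exact permutation tests, adjusted over 6 ratio tests, none of the 3 differences passed (0.04, -0.13 and -0.08, adjusted p = 0.87 each). The smallest p these tests allow is 0.0079 for 5 against 5 mice and is larger for 3 against 5. A single test of 3 against 5 mice could not pass alone after the adjustment, so its failure to pass says little. The spread of the ratio, up to 0.48, sets the size of an unequal change that could be seen.

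Coq4 encodes a scaffold protein of the assembly (ENSMUSG00000026798.10, chromosome 2, 29787493 to 29797935, plus strand). Its counts were low, at 119, 87.9, 92.8, 108 and 115 in vehicle-treated mice. They were 104, 90.2, 106, 99.1 and 113 under semaglutide and 123, 114 and 147 with the ketone ester. The first 2 groups overlapped throughout, and the lowest semaglutide + ketone ester value, 113.5, was just above the highest semaglutide value, 112.6. Means were 104.5 ± 13.7 (SD, n = 5), 102 ± 8.36 (n = 5) and 128 ± 17.1 (n = 3). Log2 differences were -0.02 (95% interval -0.28 to 0.23, adjusted p = 0.91 in limma) for semaglutide against vehicle and 0.31 (0.01 to 0.61, adjusted p = 0.13) for the ketone ester on top. Coq4 shares 1010 bases with Trub2 on the opposite strand, and whether the counting used strand is not given in the sources used here, so reads of both genes may be mixed in this value.

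Coq2 encodes the enzyme that attaches the tail and so commits the ring precursor to the pathway (ENSMUSG00000029319.8, chromosome 5, 100654723 to 100675140, minus strand). Of the coenzyme Q synthesis genes, it varied least among the sampled vehicle-treated mice. Counts were 902, 892, 876, 870.4 and 880.2 there, a coefficient of variation of 1.43%. These values rest on 708 to 788 reads per library, where counting error alone would give a wider spread. The narrow range is therefore not taken as a property of Coq2. Semaglutide-treated mice had 959, 1017, 1092, 772 and 889.9, and semaglutide + ketone ester-treated mice 826, 901 and 1033. Both treated groups spread to either side of the vehicle range, with a coefficient of variation of 12.9% under semaglutide and 11.4% with the ketone ester. The means were 884 ± 12.7 (SD, n = 5), 946 ± 122 (n = 5) and 920.2 ± 105 (n = 3). The log2 difference of semaglutide from vehicle was 0.09 (95% interval -0.11 to 0.29, adjusted p = 0.52 in limma), and that of semaglutide + ketone ester from semaglutide was -0.04 (-0.27 to 0.19, adjusted p = 0.84). Both passed with columns rescaled to equal totals, at 0.262 (adjusted p = 0.012) and -0.273 (adjusted p = 0.019).

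Coq8a and Coq8b encode kinase-like proteins that support the assembly of the pathway. For Coq8a (ENSMUSG00000026489.13, chromosome 1, 180165238 to 180199602, minus strand), counts were 17342, 11660, 9595, 15172 and 17902 in vehicle-treated mice. They were 8744, 18464, 14083, 12056 and 11969 under semaglutide and 14131, 11884 and 17389 with the ketone ester. Each group spanned much the same range, and mice 13 and 14, both under semaglutide, held the lowest and the highest value of all 13. Means were 14334 ± 3609 (SD, n = 5), 13063 ± 3573 (n = 5) and 14468 ± 2768 (n = 3), with a coefficient of variation of 25.2%, 27.4% and 19.1%. The log2 differences were -0.14 (95% interval -0.58 to 0.30, adjusted p = 0.66 in limma) for semaglutide against vehicle and 0.17 (-0.34 to 0.68, adjusted p = 0.65) for the ketone ester on top. Without mouse 13 they were -0.003 (adjusted p = 0.99) and 0.04 (adjusted p = 0.91). With all mice, the first interval includes the -0.48 found for Coq9. The gene shares 366 bases with Cdc42bpa on the opposite strand.

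Coq8b (ENSMUSG00000003762.13, chromosome 7, 27233023 to 27257950, plus strand) rested on only 28 to 82 reads per library. The gene shares 5775 bases with Gm44641 on the same strand and 8670 bases with Gm15567 on the opposite strand. Neither is among the genes measured, and whether their reads enter the Coq8b value was not tested. Vehicle-treated mice had normalized counts of 72.1, 33.7, 64.3, 49.9 and 53.6. Semaglutide-treated mice had 43.5, 53.0, 68.9, 79.6 and 57.4, and semaglutide + ketone ester-treated mice 58.3, 71.3 and 63.7. All 3 groups overlapped. Means were 54.7 ± 14.7 (SD, n = 5), 60.5 ± 14.1 (n = 5) and 64.4 ± 6.52 (n = 3). Differences on the log2 scale were 0.16 (95% interval -0.29 to 0.60, adjusted p = 0.61 in limma) for semaglutide against vehicle and 0.12 (-0.40 to 0.63, adjusted p = 0.77) for the ketone ester on top, so that neither comparison passed and changes within these intervals would not have been seen. The log2 ratio of Coq8a to Coq8b was 8.01 ± 0.50 (n = 5), 7.72 ± 0.43 (n = 5) and 7.78 ± 0.37 (n = 3), and no difference between groups passed a two-sided exact permutation test (-0.29, 0.06 and -0.24, adjusted p = 0.87 each).

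Mice were then compared by the median, over the 10 genes, of the log2 difference from the vehicle mean. It was 0.08, -0.13, -0.10, 0.06 and 0.05 in vehicle-treated mice 1 to 5, and -0.29, -0.31, -0.17, -0.41 and -0.33 in semaglutide-treated mice 13 to 17. In the semaglutide + ketone ester group it was -0.09, 0.04 and 0.24 in mice 19, 21 and 22. All 5 semaglutide-treated mice, mouse 13 included, were below every other mouse, and the semaglutide + ketone ester mice reached above the highest vehicle-treated mouse only in mouse 22. Mouse 22 had the highest count of its group for 8 of the 10 genes and mouse 19 the lowest for 7, and among semaglutide-treated mice mouse 16 was the lowest for 6. For groups that did not overlap, 5 of the 10 genes had every semaglutide-treated mouse below every vehicle-treated mouse (Coq5, Coq6, Coq7, Coq9 and Coq10a), against 7.45% of all genes tested. In 6 of the 10 (Coq3, Coq4, Coq5, Coq6, Coq7 and Coq9) every semaglutide + ketone ester-treated mouse was above every semaglutide-treated mouse, against 9.96% of all genes tested.

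**Figure D3:**
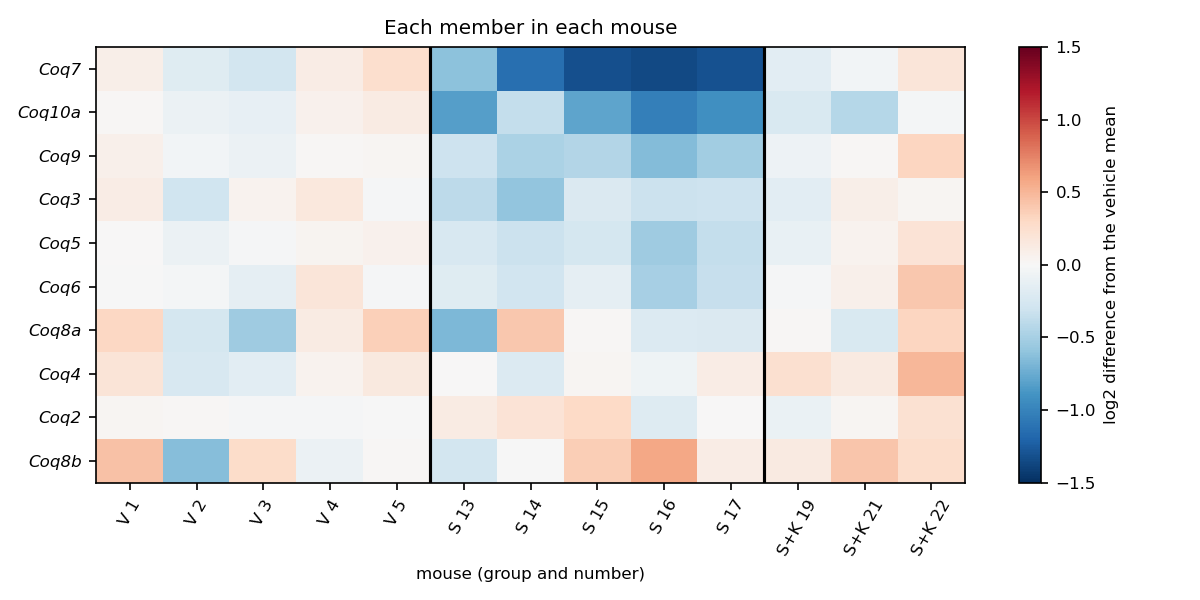
Log2 difference of each gene (rows) from its vehicle mean in each mouse (columns, by group and mouse number), with blue below and red above the vehicle mean on a color scale from -1.5 to 1.5. The Coq7 and Coq10a rows are blue in the 5 semaglutide columns, while Coq8a and Coq8b hold both colors within each of the vehicle and semaglutide groups.

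Other genes of coenzyme Q biology were followed as lists chosen by function. Of all genes tested, 13.9% were lower and 12.5% higher under semaglutide. With the ketone ester, 10.0% were higher and 10.7% lower than under semaglutide. These shares are the background for the counts of each list below. Of 9 further genes for synthesis and handling of the lipid, 2 were lower and none higher under semaglutide, with a median log2 fold change of -0.15. These were Coq10b and Pptc7, a mitochondrial matrix phosphatase linked to the pathway, which fell from 4163 ± 228.8 to 2425 ± 554 (SD, n = 5 each; log2 -0.81, SE 0.13, adjusted p = 0.00076 in limma). With the ketone ester, Pptc7 stood at 2902 ± 329.6 (n = 3), a log2 difference from semaglutide of 0.28 that did not pass (SE 0.15, adjusted p = 0.20). In that comparison 2 of the 9 genes were higher and none lower, with a median of 0.22. They were Coq10b and Pdss2, a subunit of the enzyme that makes the tail, at 279 ± 37.3 under semaglutide and 406 ± 82.6 with the ketone ester (log2 0.53, SE 0.14, adjusted p = 0.016). Of 3 further kinase-like genes of the ABC1 family, 1 was called in each comparison. It was Adck1, with 351 ± 20.0, 296 ± 25.3 and 364 ± 39.1 (SD, n = 5, 5 and 3), a log2 fold change of -0.25 (adjusted p = 0.048 in limma) under semaglutide and of 0.30 (adjusted p = 0.049) with the ketone ester.

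The mevalonate pathway supplies the isoprene units of the tail. Of 9 genes measured, 1 was lower and none higher under semaglutide, with a median log2 fold change of -0.07. This count is near the 13.9% of all genes tested that were lower. The lower gene was Hmgcs1, the cytosolic synthase of HMG-CoA. It stood at 543 ± 30.6 under vehicle, 364 ± 42.2 under semaglutide and 548 ± 58.0 with the ketone ester (SD, n = 5, 5 and 3). Its log2 fold changes were -0.58 (SE 0.09, adjusted p = 0.00063 in limma) and 0.59 (SE 0.11, adjusted p = 0.0022). With the ketone ester 2 genes were higher and 1 lower than under semaglutide, with a median of 0.27. Idi1, the isomerase of the isoprene units, rose by 0.61 (SE 0.19, adjusted p = 0.033), and Ggps1, a synthase of a longer isoprenoid, had a log2 fold change of -0.38 (SE 0.12, adjusted p = 0.045).

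Enzymes that pass electrons to coenzyme Q were followed in a list of 14 genes, of which 13 were measured. Under semaglutide 5 were lower and none higher, with a median log2 fold change of -0.42. The 5 were Gpd2, the mitochondrial glycerol-3-phosphate dehydrogenase, and all 4 subunits of complex II, Sdha to Sdhd. Log2 fold changes were -0.71 for Gpd2 (SE 0.25, adjusted p = 0.044 in limma), -0.67 for Sdhb (0.0031), -0.57 for Sdhc (0.00053) and -0.53 for Sdhd (0.0078). Gpd2 ranged from 1426 to 5387 under semaglutide and from 3741 to 4666 under vehicle, so its highest value was in a semaglutide-treated mouse. With the ketone ester 4 were higher and none lower, with a median of 0.22, and the 4 were the complex II subunits (0.77 for Sdhb, adjusted p = 0.0041, and 0.54 for Sdhc, adjusted p = 0.0028, for example). The value for Gpd2, 0.76, did not pass (SE 0.28, adjusted p = 0.069).

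Subunits of the 2 complexes on either side of the lipid were lower under semaglutide in nearly all cases. Of 36 nuclear genes for complex I, which reduces coenzyme Q, 32 were lower and none higher, with a median of -0.45. Ndufs1 had the largest fold change of the list, from 6569 ± 519 to 3672 ± 486 (SD, n = 5 each; log2 -0.85, SE 0.12, adjusted p = 0.0003 in limma). With the ketone ester 33 of the 36 were higher than under semaglutide and none lower, with a median of 0.55 (Ndufs1 7402 ± 1611, n = 3, log2 1.00, SE 0.14, adjusted p = 0.00061). For complex III, which takes electrons from coenzyme Q, all 9 genes were lower under semaglutide (median -0.58) and all 9 were higher with the ketone ester (median 0.63). Uqcrc1, its core subunit, went from 9947 ± 622.5 to 5703 ± 815 and, with the ketone ester, 10947 ± 1917 (log2 -0.81, adjusted p = 0.00023, and 0.94, adjusted p = 0.00059, in limma). Between semaglutide + ketone ester and vehicle, the medians of these 6 lists lay between -0.11 and 0.15. The 5 of 10 synthesis genes that were lower form a smaller share than those of complexes I and III, and whether the shares differ was not tested. Per mouse, the median of the complex I genes was -0.22, -0.32, -0.41, -0.70 and -0.57 in mice 13 to 17, and -0.03, 0.06 and 0.32 in mice 19, 21 and 22. Mouse 16 was thus the lowest and mouse 22 the highest for both complex I and the coenzyme Q synthesis genes.

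**Figure D4:**
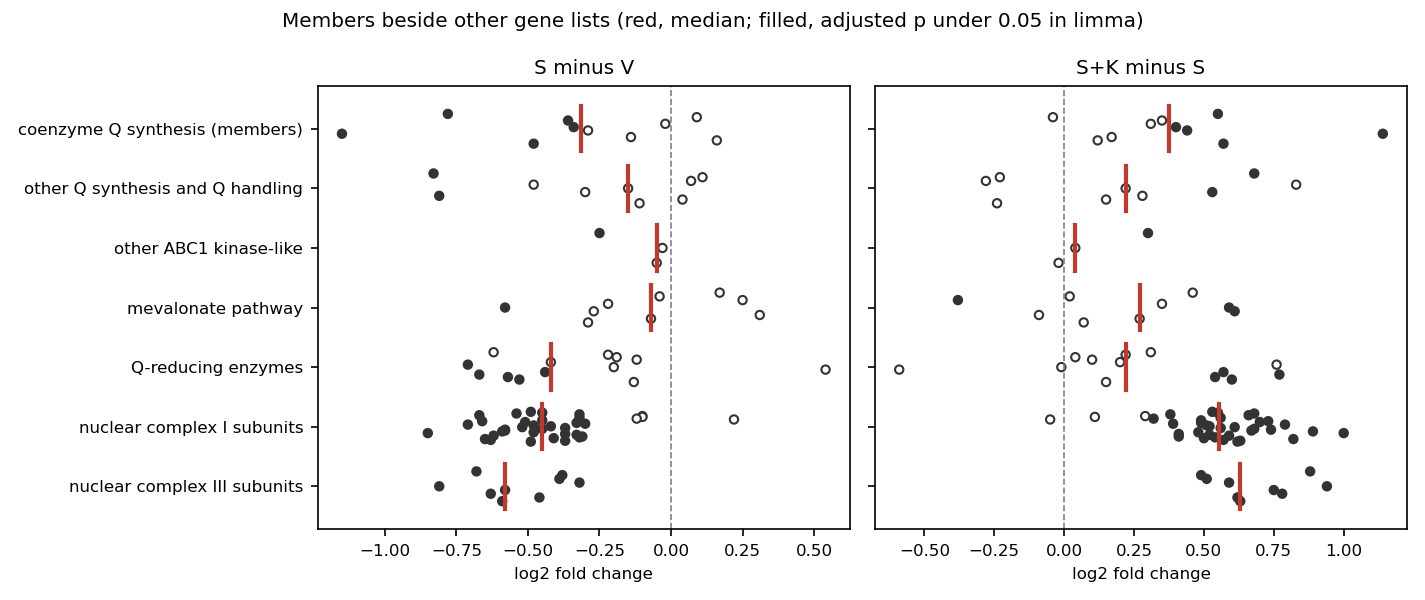
Log2 fold changes (x axis) of each gene of the coenzyme Q synthesis genes and 6 other lists (y axis), for semaglutide minus vehicle and for semaglutide + ketone ester minus semaglutide; points are genes, filled where the adjusted p in limma was under 0.05, and red bars are medians. The coenzyme Q synthesis genes spread from -1.15 to 0.16 in the first panel, whereas the 9 complex III genes all lie between -0.81 and -0.32.

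Genes whose levels over the 13 mice were most like those of the coenzyme Q synthesis genes were found by Pearson's r on the log2 scale, as a description; the points share libraries and treatment groups. With the mean of the 10 standardized genes, the 5 nearest were Ndufa10 (r = 0.956), Nipsnap2 (0.955), Mrpl3 (0.951), Cox7b (0.950) and Slc25a3 (0.947). Ndufa10 and Cox7b are subunits of respiratory complexes, Mrpl3 a protein of the mitochondrial ribosome and Slc25a3 the mitochondrial phosphate carrier. With Coq7 alone they were Tmem8b (0.982), Ppif (0.981), Alas1 (0.980), Pde7b (0.978) and Pcp4l1 (0.978). Alas1, the first enzyme of heme synthesis, had counts of 2006, 1099 and 2022 in the 3 groups, and Ppif, the cyclophilin of the mitochondrial matrix, 564, 361 and 567. Both were low under semaglutide with nearly equal means in the other groups, as Coq7 was. They were picked for likeness to Coq7 in these mice, so this shared order follows from the choice. For Coq8a, a profile chosen after its values were seen, the nearest was Idh2, the mitochondrial NADP-dependent isocitrate dehydrogenase, with r = 0.931.

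The tissue label was checked against marker genes, and other cell types were followed beside the result. All 8 myofibre markers were abundant, and the summed normalized counts of the 8 were 2103054 to 2500176 in vehicle-treated mice, 1317658 to 2263789 under semaglutide and 2634710 to 3068043 with the ketone ester. Of these 8, 1 was lower and 1 higher under semaglutide, namely myoglobin (Mb, log2 -2.15, adjusted p = 3.3e-05 in limma) and desmin (Des, 0.46, adjusted p = 0.021), and with the ketone ester 3 were higher (Mb 1.64, Myh4 1.02 and Acta1 0.90) and 1 lower (Des -0.55). Fibroblast markers (4 genes) summed to 4924 to 11241 under vehicle, 4490.0 to 6032 under semaglutide and 6253 to 10496 with the ketone ester, and 3 of 4 were lower under semaglutide, with 2 of 4 higher with the ketone ester. Tendon markers (4 genes) summed to 1250.0 to 6696, 743 to 2695 and 3209 to 3973, with 3 of 4 lower under semaglutide and 3 higher and 1 lower with the ketone ester. The lower fibroblast markers were the collagen genes Col1a1 (log2 -3.02) and Col3a1 (-3.14), and Pdgfra (-0.62, adjusted p = 0.027 in limma). Dcn did not pass (-0.27, adjusted p = 0.31 in limma). The 2 that were higher with the ketone ester were the collagen genes. Thus 3 of the 4 fibroblast markers and 3 of the 4 tendon markers were low in the group in which the coenzyme Q synthesis genes were low. The other tendon marker, Scx, was not (log2 0.29, adjusted p = 0.46 in limma). Scx was also the tendon marker that was lower with the ketone ester (log2 -1.07, adjusted p = 0.025). Erythroid markers (4 genes) summed to 1344 to 2269, 49.5 to 3098 and 2787 to 5467, and all 4 were higher with the ketone ester than with semaglutide. Endothelial markers (4 genes) summed to 3135 to 3741, 3164 to 3599 and 3389 to 3987, with 2 of 4 higher with the ketone ester. None of the 4 adipocyte, 4 macrophage or 4 Schwann cell markers passed in these comparisons. Adipocyte markers summed to 316 to 2153, 37.2 to 5823 and 548 to 1030.0, macrophage markers to 196 to 703, 261 to 885 and 319 to 623, and Schwann cell markers to 685 to 1971, 646 to 2184 and 702 to 1103 in the 3 groups. No marker was at 0 in every mouse of a group. The part of the markers that passed in these comparisons (myofibre, fibroblast, tendon, erythroid and endothelial) in the result for the coenzyme Q synthesis genes was not tested.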

How the data were processed

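Per the labels and the study's methods, stranded mRNA libraries from frozen gastrocnemius muscle were sequenced paired-end, aligned to mm10 with DRAGEN, and deposited by the authors as normalized counts per gene (a signal that is not raw counts), with 1 column per mouse. The submitters' processing notes also name DESeq2, without a version; the normalization, annotation and use of strand are not given in the sources used here. The values of every mouse were whole multiples of a single step, so that whole-read counts could be recovered from the deposited values for 100% of them (tolerance 0.01 read).

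Genes with a mean of at least 10 over the 13 mice (12303 of 21868) were fitted on log2(normalized count + 1) with limma 3.58.1 (R 4.3.3), the 3 groups in 1 model with a variance trend, and p-values were adjusted over all genes tested (threshold 0.05). A fold change on this scale understates that of low genes. The labels name separate mice and no split into batches, and mouse numbers do not repeat across groups, so no samples were paired. Batches of RNA extraction or library preparation are not given in the sources used here. The test was tested on simulated data. Alternatives were edgeR 4.0.16 and DESeq2 1.42.0 on recovered reads, pseudocounts of 0.5 and 10, no filter and a mean of at least 50, other scalings, sample weights, only the groups compared, the criterion of the study and leaving out each mouse; a fit without the variance trend was chosen after seeing the data. The 10 genes and the lists were chosen with earlier results of these data known. From each other list at most 4 genes that passed in either comparison with semaglutide are named, by the size of their fold change, beside both members of each paralog pair. Likeness is given for the 5 genes nearest the mean of the 10 and nearest the gene with the largest change. Gene positions and exon lengths are from GENCODE M21 (GRCm38) and promoter windows from RefSeq (GRCm38.p6).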

Additional observations from a re-analysis of the deposited data

Results flagged for a closer look

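Of 24 combinations of a gene and a group of at least 4 mice that were checked (chance alone marks about 1 in 20), 1 stood out. The Coq7 normalized count of semaglutide mouse 13 was 421.7, while the nearest mouse of its group was at 294.1 and the lowest at 252.5. The gap made up 0.75 of the range of the group, above the critical value of 0.71 for 5 values. This mouse also stood apart on the first principal component of all genes. Without it, the Coq7 log2 fold change was -1.28 under semaglutide (adjusted p = 1.9e-06 in limma) and 1.27 with the ketone ester (adjusted p = 8.8e-06).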

How the results depend on the processing

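Of 780 log2 fold changes of single genes under alternatives, 698 kept direction and side of the threshold, 20 lost and 20 gained a call, and 42 changed sign, none of them a called value in the analysis reported. With equal totals, 1 gene was higher and 3 lower for semaglutide against vehicle (median -0.143), and 2 were higher and 1 lower for semaglutide + ketone ester against semaglutide (median 0.137). Equal totals without the mitochondrial genome gave 3 higher in the second comparison (median 0.198), and so did fitting only the groups compared (3 higher). The criterion of the study (an unadjusted p over the 3 groups and a fold of 1.5) marked 2 genes, Coq7 and Coq10a, both lower under semaglutide, higher with the ketone ester (2) and numerically lower than vehicle (2), though it does not test pairs. Leaving out 1 mouse gave 4 to 6 lower genes in the first comparison and 2 to 6 higher in the second, the 2 without mouse 22. Shares of all genes that passed were not computed for the rescaled, 2-group and leave-out fits. The cause of these shifts was not tested. Among fold changes that were not called, the following changed sign. For semaglutide against vehicle, Coq4 was 0.149 with equal totals, 0.021 with quantile normalization, 0.046 without the mitochondrial genome and 0.028 with sample weights, and ranged from -0.083 to 0.025 leaving out 1 mouse; Coq8a was 0.037 with equal totals, and Coq8b ranged from -0.003 to 0.265 leaving out 1 mouse. For semaglutide + ketone ester against semaglutide, Coq8a and Coq8b were -0.065 and -0.119 with equal totals and -0.004 and -0.058 without the mitochondrial genome, and Coq2 was 0.038 with quantile normalization and -0.123 to 0.039 leaving out 1 mouse. For semaglutide + ketone ester against vehicle, Coq2, Coq5 and Coq8a were -0.011, -0.01 and -0.027 with equal totals, and these with Coq9 were -0.054, -0.053, -0.07 and -0.02 without the mitochondrial genome. Coq3 and Coq7 were 0.02 and 0.016 with quantile normalization and 0.009 each with sample weights, and Coq7 was 0.0 in edgeR. Leaving out 1 mouse gave -0.035 to 0.126 for Coq2, -0.091 to 0.058 for Coq3, -0.026 to 0.134 for Coq5, -0.099 to 0.067 for Coq7, -0.106 to 0.169 for Coq8a and -0.035 to 0.17 for Coq9. The log2 ratio of Coq10a to Coq10b differed by -0.001 for semaglutide against vehicle with a pseudocount of 10 and by -0.126 to 0.194 leaving out 1 mouse, by -0.277 to 0.044 for semaglutide + ketone ester against semaglutide and by -0.161 to 0.04 against vehicle, and that of Coq8a to Coq8b by -0.09 to 0.265 for semaglutide + ketone ester against semaglutide. Coq8b rests on the fewest reads of the 10 genes, 28 to 82 per library.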
